A study of Homo sapiens with 8 samples.

Results

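The ZNF genes are the largest named group of human zinc finger genes, and small open reading frames (smORFs) in their transcripts were followed here in Caco-2 cells by Ribo-Seq, in which the stretches of RNA that ribosomes protect from nuclease are sequenced. A smORF was a member when its annotated host gene carried a symbol made of ZNF, a number and at most some closing letters, with antisense and pseudogene symbols left out. This rule found 188 ZNF host genes among 7777 host genes, and 633 ZNF smORFs among 24199 smORFs. No measured value entered the rule.

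Most ZNF proteins fold around C2H2 zinc fingers, short loops held by a zinc ion that read DNA bases one after the other. Many also carry a KRAB domain, which recruits the corepressor TRIM28 (KAP1) and, through it, the machinery that writes repressive chromatin, above all on transposable elements. A smORF upstream of a coding sequence, called a uORF, is scanned by ribosomes before the main start codon and often lowers translation of the main protein, so reads on a uORF are not a measure of the zinc finger protein itself.

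Caco-2 is an established colon adenocarcinoma line that acquires enterocyte features when left to differentiate. The 8 libraries formed 4 groups of 2. Cells were left undifferentiated, or were differentiated and then kept without treatment (control), given micelles of the bile salt taurocholate without lipid, or given lipid micelles with BSA, oleic acid and cholesterol. All groups are the same cancer line, no label says that replicates came from separate cultures, and p-values therefore cover the spread between these libraries, which may be technical. The length of differentiation and of treatment is not given in the labels.

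Library totals ran from 506382 to 884711 smORF counts. Of 16 enterocyte markers fixed for a check of the labels, 6 could be tested through their smORFs, and 4 rose (APOA4, APOB, FABP1 and CDX2) while APOA1 fell on differentiation. Of 15 proliferation markers, 7 could be tested and 6 fell. MKI67, TOP2A and MCM5 passed the filter on low counts only through undifferentiated cells, so they could only fall. Likewise APOA4 passed only through differentiated cells and could only rise. CPM are host gene counts scaled to a common library total of 1e6, with TMM scaling. The totals scaled are those of host gene counts, which take 1 of several overlapping smORFs, and are smaller than the smORF totals above. The summed level of the proliferation markers was 5325 and 6053 CPM in undifferentiated cells. In the 6 differentiated libraries it was 319 to 454 CPM. Lower proliferation markers therefore move with every change on differentiation described here, and their part in these changes was not tested. Of the fibroblast and immune markers none passed the filter on low counts, the immune marker PTPRC was at 0 in all libraries, and no goblet or enteroendocrine marker on the list had a smORF. In such bulk libraries fewer cells with an RNA and less RNA per cell cannot be told apart.

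The ZNF smORFs were nearly all uORFs. The annotation placed 624 of 633 (98.6%) in this class, against 16911 of 24199 (69.9%) of all smORFs, and 578 (91.3%) lay wholly within a 5′ untranslated region of GENCODE release 44. The median length was 33 amino acids (range 6 to 145), against 31 for all smORFs. Their sequence began with ATG in 236 cases (37.3%), against 43.4% of all smORFs, and the others began with another codon. Reading frames had been taken from a translation of assembled transcripts in 3 frames. The RibORF score, which rates how far the reads follow the codon rhythm and on which the smORFs had been filtered by the authors, had a median of 0.862 for ZNF smORFs and 0.876 for all. Protein-like conservation was rare: the mean PhyloCSF score, positive where substitutions look like those of coding sequence, was above 0 for 6 ZNF smORFs (0.948%), against 1.75% of all. A repeat element overlapped 289 (45.7%), against 39.7% of all.

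The sequences below are the 5′ ends, at most 30 bases, of the most counted smORF of the host genes on which the results turn, read from the deposited annotation (hg38), with the first codon in capitals. They show that some leading smORFs open with ATG and others do not, and that one listed smORF serves both ZNF28 and ZNF468. ZNF488 lies at chr10:47368836-47368904 on the minus strand, ZNF577 at chr19:51880788-51887669 (minus), ZNF575 at chr19:43533834-43533881 (plus), ZNF770 at chr15:34983477-34988197 (minus), ZNF827 at chr4:145938453-145938683 (minus), ZNF114 at chr19:48270186-48279791 (plus), ZNF335 at chr20:45971459-45972176 (minus), ZNF664 at chr12:124011642-124011848 (plus) and the shared smORF at chr19:52854319-52854339 (minus). All of these lie in exons of 5′ untranslated regions.
ZNF488: ATGgggagcttccatatctcatggctcctt
ZNF577: ATGgtctccgcattggaaccagtgcttggg
ZNF575: ATGaaatttaacggcaagaagggcgcagtt
ZNF770: ATGcgtgaggaggacttcagaaacccgact
ZNF827: AGAatattacgctcggggacaagccaggtg
ZNF114: CACccaggagttcgagacgagtctgggcag
ZNF335: ATGgcgacctcgtcgatgccggagtcagag
ZNF664: ATGtgcaggaggcagaatgccaaactgact
ZNF28 and ZNF468: CTTctaaagactgttggtacg

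The members share sequence and position beyond the rule. ZNF host genes sat on chromosome 19 in 84 of 188 cases (44.7%), against 457 (5.88%) of all host genes. Translated GENCODE transcripts held a median of 10 and at most 36 C2H2 finger matches. A KRAB box was found in 58 host genes with the pattern chosen at the outset, and in 104 with a wider pattern chosen after the planned one was seen to miss known KRAB genes. Although the genes are similar to one another, 13 of 633 smORFs shared a run of 28 bases, about a footprint, with a smORF of another host gene, and 76 of the 597 long enough held such a run elsewhere in hg38. The treatment of multi-mapped reads and of strand in the counting is not stated, so values of these smORFs, and of smORFs that lie opposite another gene, are uncertain. Many smORFs also overlap: 76.9% of ZNF smORFs overlapped another on the same strand, and the 633 formed 260 clusters. For each host gene the count therefore took the most counted smORF of each cluster, summed over its clusters.

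ZNF smORFs drew a small and steady part of the reads. Their share of all smORF counts was 1.22% and 1.23% in undifferentiated cells, 1.31% and 1.24% in differentiated control cells, 1.29% and 1.25% with micelles without lipid, and 1.25% and 1.24% with lipid micelles. All 6 differentiated libraries lay above both undifferentiated ones by a small margin, and the 3 differentiated groups overlapped or adjoined each other. An exact permutation test of 2 libraries against 2, which cannot go below 0.33, gave a two-sided p = 0.33 for control against undifferentiated cells. With 1 smORF per cluster the shares were 1.01% to 1.17%.

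At 10 counts or more, 83 to 115 of the 188 ZNF host genes were detected in a library, with the lowest number in the library of fewest counts and the highest in the library of most counts. In every library 60 were detected (31.9%, against 36.2% of all host genes), in none 47, and 2 had no count at all. These counts leave 116 host genes past the filter on low counts. Those 116 had a median of 56.4 CPM, against 76.4 CPM for all 5090 host genes tested, and per kilobase of counted smORF a median of 279 CPM, against 488.

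**Figure D1:**
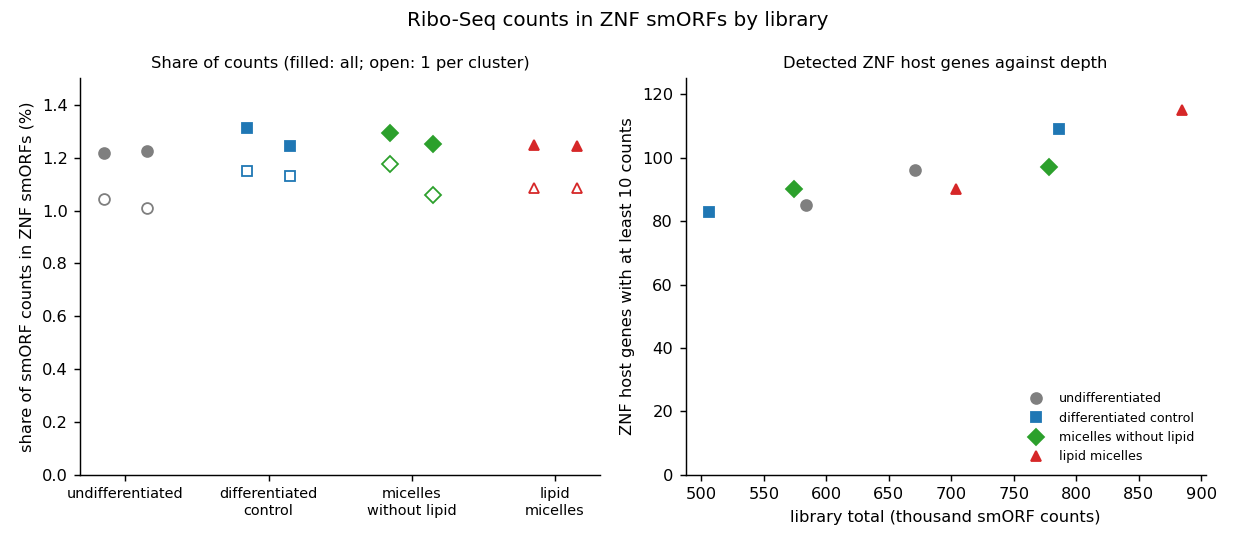
Left, percent of each library's smORF counts that fell in ZNF smORFs (filled symbols, all smORFs; open symbols, 1 smORF per overlap cluster), by group, with 2 libraries a group. Right, number of ZNF host genes with at least 10 counts against the library total (smORF counts); the ends are 83 host genes at the lowest total and 115 at the highest.

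Per kilobase, the highest level belonged to ZNF488, a zinc finger protein of oligodendrocyte differentiation, with a mean over the 4 groups of 2969 CPM per kilobase. ZNF28 and ZNF468 followed at 2319, with one and the same 21-base smORF that cannot be split between them. This smORF is shorter than a footprint of about 28 bases, and its rank comes from the division by length. Its mean level of 48.7 CPM lay below the median of 56.4 CPM of the tested ZNF host genes. ZNF552 stood at 2132 and ZNF664 at 1789. ZNF552 varied widely between replicates, with 76 and 26 counts in undifferentiated and 46 and 131 in control cells, so that its place in this order is uncertain. The tested host genes ran down to 65.4 CPM per kilobase.

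Differentiated control cells were first compared with undifferentiated cells. Host genes were tested with edgeR's quasi-likelihood model over all 8 libraries, and a host gene was called at a Benjamini-Hochberg adjusted p under 0.05 with at least a 2-fold change. Of the 116 ZNF host genes tested, 15 (12.9%) were called higher and 10 (8.62%) lower in differentiated control cells. Over all 5090 host genes, 18.5% were called higher and 16.6% lower, so the ZNF shares lay below the background shares in both directions. This difference was not tested, and the counts of ZNF host genes were also lower, with a median of 156 over the 8 libraries against 213. Their median log2 fold change was 0.24, against 0.01 over all host genes, with quartiles of -0.41 and 0.71 against -0.76 and 0.86. All 25 called host genes had control libraries that did not overlap the undifferentiated ones. The same libraries set the call, so this adds no separate support. Control libraries lay wholly above the undifferentiated ones in 36.1% of all host genes tested and wholly below in 35.6%. For the tested ZNF host genes the shares were 42.2% and 29.3%.

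**Figure D2:**
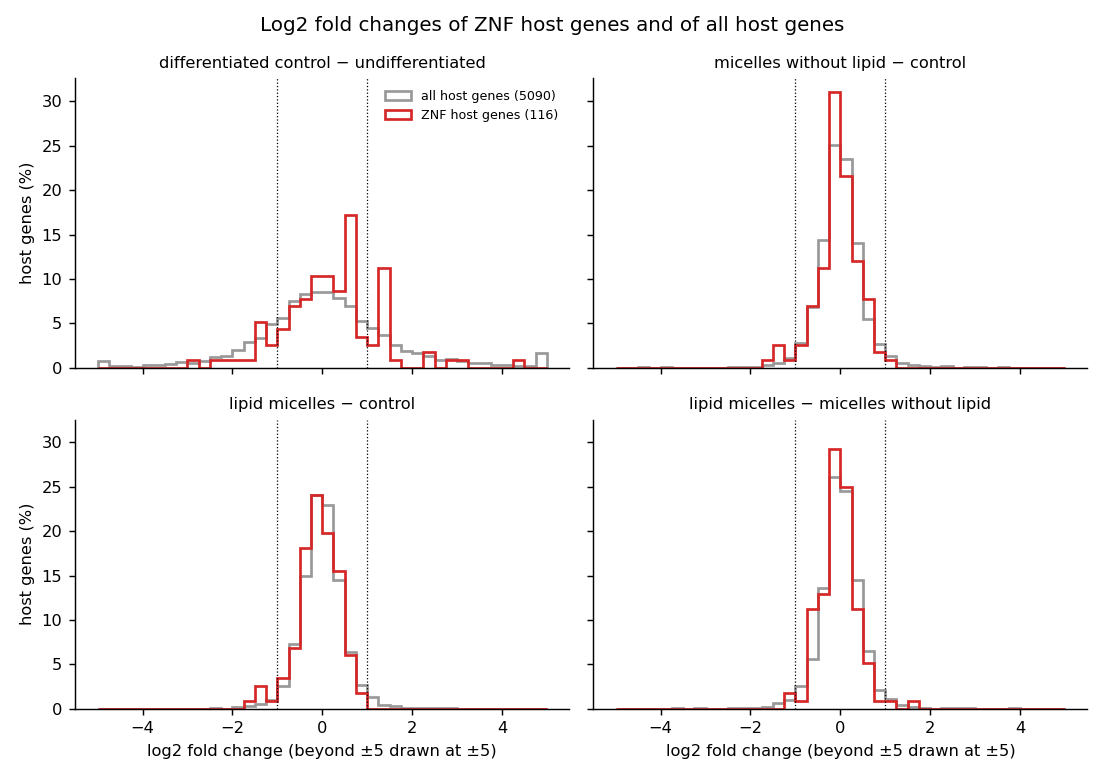
Percent of host genes by log2 fold change (x axis, in steps of 0.25) in the 4 comparisons, for the 116 ZNF host genes tested (red) and all 5090 tested (grey); dotted lines mark a 2-fold change. On differentiation the ZNF distribution is narrower than that of all host genes, and in the 3 micelle comparisons both crowd around 0.

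The clearest rise was that of ZNF488. Its smORF had 67.3 and 62.2 CPM in undifferentiated cells, 359 and 309 CPM in control cells, 255 and 192 CPM with micelles without lipid and 187 and 208 CPM with lipid micelles. All 6 differentiated libraries lay above both undifferentiated ones. The log2 fold change of control against undifferentiated cells was 2.35 (SE 0.27, edgeR adjusted p = 1.3e-05).

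ZNF577, a KRAB zinc finger gene on chromosome 19, had 26.3 and 29.4 CPM in undifferentiated cells and between 132 and 158 CPM in the 6 differentiated libraries. Nothing overlapped between the undifferentiated and the differentiated libraries, and the 3 differentiated groups lay on top of each other. Its log2 fold change was 2.34 (SE 0.33, edgeR adjusted p = 7.1e-05). With 9 and 9 counts in undifferentiated cells, ZNF577 passed the filter on low counts only through differentiated libraries, so it could only be called higher. ZNF770 rose by 1.39 on the log2 scale (SE 0.28, edgeR adjusted p = 0.0012), from 84.9 and 88.3 CPM to 242 and 214 CPM in control cells. With lipid micelles it stood at 122 and 174 CPM, still above the undifferentiated libraries.

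The rises with the largest fitted folds rested on few counts. ZNF395, a DNA-binding factor induced by hypoxia, had 1 and 0 counts in undifferentiated cells, 11 and 15 in control cells, 8 and 2 with micelles without lipid and 5 and 6 with lipid micelles. The ratio of control to undifferentiated counts was 25.3, with an exact 95% interval of 4.15 to 1036 for counting error alone. Its only smORF, a dORF (3′ untranslated region), is also assigned to FBXO16 and shares a 28-base run with a smORF of another host gene, so the reads cannot be given to ZNF395 alone.

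ZNF827, which brings the NuRD chromatin complex to telomeres, had 1 and 1 counts in undifferentiated cells and 7 and 13 in control cells. Its counts in the micelle libraries, 7 to 12, stayed above the undifferentiated ones, and the control ratio was 9.72 (95% interval 2.36 to 85.8). ZNF575 had 3 and 1 counts in undifferentiated cells and 10 and 20 in control cells, a ratio of 7.29 (95% interval 2.57 to 28.5). In edgeR the adjusted p was 0.0033 for ZNF395, 0.0042 for ZNF827 and 0.0034 for ZNF575. All of these passed the filter on low counts only through differentiated libraries, so they could only be called higher.

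Other host genes were called higher with log2 fold changes under 2. ZNF615 rose by 1.66 on the log2 scale, ZNF696 by 1.44, ZNF792 by 1.39 and ZNF608, a relative of ZNF609, by 1.38, with edgeR adjusted p between 0.0268 and 0.0357. ZNF608 shows how far replicates could part: its undifferentiated libraries had 22 and 4 counts, against 24 and 46 in control cells. The remaining 5 of the 15 (ZNF621, ZNF283, ZNF445, ZNF780A and ZNF514) had log2 fold changes of 1.02 to 1.32. ZNF608 and ZNF445 passed the filter on low counts only through differentiated libraries, so they could only be called higher. In 11 of the 15, all 6 differentiated libraries lay above both undifferentiated ones. The undifferentiated and control libraries had also set the call, and the share over all host genes was not computed, so this count adds no separate support. The 4 exceptions, ZNF615, ZNF696, ZNF445 and ZNF514, were high in control cells and overlapped the undifferentiated range in at least 1 micelle library.

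Among host genes called lower, ZNF114, another KRAB zinc finger gene of chromosome 19, fell the most. It had 158 and 206 CPM in undifferentiated cells, 22.7 and 24.9 CPM in control cells, 13.8 and 10.4 CPM with micelles without lipid and 19.8 and 19.9 CPM with lipid micelles. The ranges were far apart, and the log2 fold change was -2.90 (SE 0.37, edgeR adjusted p = 3.5e-05). ZNF114 passed the filter on low counts only through the undifferentiated libraries, so it could only be called lower. ZNF335, a component of histone H3K4 methyltransferase complexes needed in neural progenitors, had 146 and 160 CPM in undifferentiated and 37.8 and 27.4 CPM in control cells (-2.25 on the log2 scale, SE 0.41, edgeR adjusted p = 6.2e-04).

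ZNF202, a repressor with binding sites at lipid metabolism genes, had 13 and 10 counts in undifferentiated cells, 2 and 3 in control cells and 1 to 4 in the micelle libraries. The undifferentiated level was 4.73 times the control level (95% interval 1.76 to 15.9). ZNF202 passed the filter on low counts only through the undifferentiated libraries, so it could only be called lower. ZNF428 fell by 1.77 on the log2 scale, from 24 and 27 counts to 9 and 6. It also passed the filter on low counts only through the undifferentiated libraries, so it could only be called lower. ZNF670 fell by 1.52, from 20 and 19 counts to 4 and 10, with a counted smORF it shares with the read-through gene ZNF670-ZNF695. ZNF165, a cancer-testis antigen, fell by 1.46 and ZNF668, linked to the response to DNA damage, by 1.38.

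ZNF83 fell by 1.45, ZNF507 by 1.27 and ZNF121 by 1.19, with edgeR adjusted p of 0.0485, 0.0396 and 0.00995. With the replicate number as a block, 15 higher and 9 lower host genes passed the threshold. ZNF83 was not called in 9 of 15 alternatives, among them this block and DESeq2. In all 10 host genes called lower, the 6 differentiated libraries lay below both undifferentiated ones. The undifferentiated and control libraries had also set these calls, and the share over all host genes was not computed. ZNF114, ZNF202 and ZNF428 were tested only because their undifferentiated libraries were high, so this count adds no separate support.

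**Figure D3:**
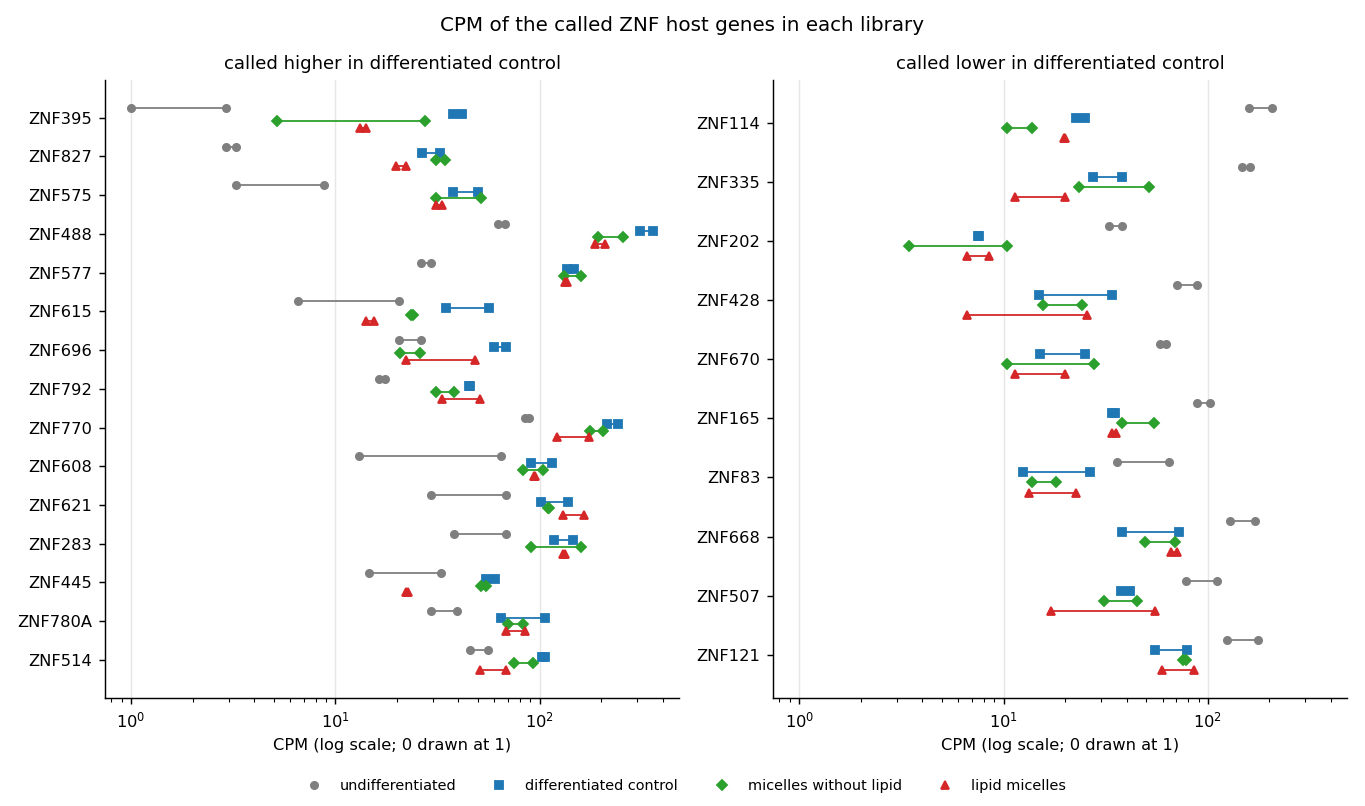
CPM (log scale, 0 drawn at 1) of each ZNF host gene called on differentiation, ordered by log2 fold change, with 1 symbol per library and a line joining the 2 libraries of a group. Undifferentiated libraries (grey) lie left of the control libraries in the left panel and right of them in the right panel; ZNF114 and ZNF335 show gaps with no overlap in any differentiated group.

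The number of calls depended on single libraries and on the tool. Without undifferentiated replicate 1, or without control replicate 2, 11 ZNF host genes were called in place of 25 (8 higher and 3 lower), and without undifferentiated replicate 2 or control replicate 1, 16 (10 higher and 6 lower), while DESeq2 called 13 (8 higher and 5 lower). ZNF395, ZNF827, ZNF575, ZNF488, ZNF577, ZNF770, ZNF114 and ZNF335 were called under every alternative in which they could be tested, and all 25 kept their direction. The alternatives refit these same libraries, so a kept direction adds no separate support. Through the filter on low counts, ZNF395, ZNF827, ZNF575, ZNF577 and ZNF114 could also be called in 1 direction only.

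Calls spread over the structural classes, and in each class below the share called was under the background of 18.5% higher and 16.6% lower. Of 59 tested host genes with a KRAB match by the wider pattern, 8 were higher and 3 lower, with a median log2 fold change of 0.35, and of the 57 without a match 7 were higher and 7 lower, with a median of 0.04. With the planned pattern the order turned: a median of 0.18 for 30 host genes with a match (4 higher, 2 lower) and 0.24 for the 86 others (11 higher, 8 lower). On chromosome 19, 6 of 53 tested host genes were higher and 5 lower, with a median of 0.47, and elsewhere 9 of 63 were higher and 5 lower, with a median of 0.20. Among 61 host genes with 10 or more finger matches 7 were higher and 3 lower, with a median of 0.34, and among the 55 with fewer 8 were higher and 7 lower, with a median of 0.06. None of these splits was tested.

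**Figure D4:**
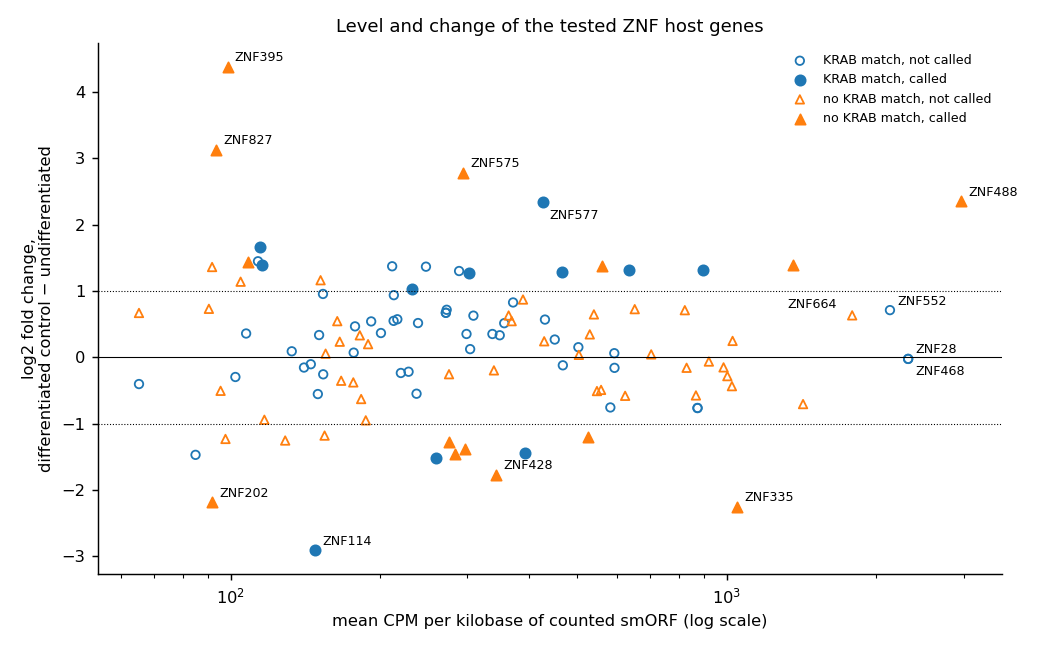
Log2 fold change of control against undifferentiated cells (y axis; dotted lines at a 2-fold change) against the mean CPM per kilobase of counted smORF (x axis, log scale) for the 116 tested ZNF host genes, with circles for a KRAB match by the wider pattern and triangles for none. Filled symbols are called; they lie across the range of levels, from ZNF827 and ZNF395 near the bottom to ZNF488 at the top.

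Host genes of known role were taken from lists. Of 10 ZNF genes with ribosome or nuclear RNA roles, 3 could be tested and none was called. ZNF207 (BuGZ), a spindle protein, had 111 and 75 counts in undifferentiated and 52 and 63 in control cells (log2 change -0.70, edgeR adjusted p = 0.0482), under 2-fold. ZNF638, a nuclear RNA- and DNA-binding protein, had a log2 fold change of -0.57 and ZNF330, a nucleolar protein, of -0.58, with adjusted p of 0.0792 and 0.143 in edgeR. Of 25 transcription factors and cofactors without a KRAB domain, 9 could be tested, ZNF395 and ZNF827 rose and ZNF335 fell, beside the background of 18.5% higher and 16.6% lower. The most read of them, ZNF217, an oncogenic corepressor, had 37 and 40 counts in undifferentiated and 39 and 55 in control cells (log2 change 0.25, SE 0.27). ZNF384 and ZNF644 also stood near 0, at 0.04 and 0.06.

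The partners through which KRAB proteins act were read in the same way. Of 21 listed genes, 12 could be tested, none was called higher and 3 were called lower, beside 18.5% called higher and 16.6% called lower over all host genes, so the count of lower calls was close to the background. The 3 were PPHLN1 and MPHOSPH8, subunits of the HUSH silencing complex, and CBX5 (HP1α), which binds methylated H3K9. TASOR, also a HUSH subunit, was not called and had a log2 change of 0.37 (edgeR adjusted p = 0.60). The other HP1 genes listed, CBX1 and CBX3, were not called either, with log2 changes of -0.19 and -0.70. PPHLN1 had 65 and 54 counts in undifferentiated and 10 and 16 in control cells (-2.23 on the log2 scale, edgeR adjusted p = 1.2e-04), and MPHOSPH8 and CBX5 changed by -2.03 and -1.13. TRIM28 itself had 336 and 289 counts in undifferentiated and 143 and 220 in control cells (log2 change -0.82, SE 0.23, edgeR adjusted p = 0.0116), under 2-fold. The median of the 12 was -0.76, against 0.01 over all host genes.

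Related finger families had few members to test, too few to set against the background of 18.5% higher and 16.6% lower. ZBTB genes gave 9 tested, with ZBTB45 higher and ZBTB10 lower. ZSCAN genes gave 4 tested, with ZSCAN12 and ZSCAN30 higher, and ZKSCAN genes 2, with ZKSCAN1 higher. ZFP genes gave 3, of which ZFP36L2, an mRNA-binding CCCH protein caught by its symbol, was higher, and KLF and SP genes 5, with SP4 lower. ZBTB45, ZSCAN12, ZSCAN30 and ZFP36L2 passed the filter on low counts only through differentiated libraries and could only be called higher. SP4 passed only through undifferentiated libraries and could only be called lower.

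At the level of single smORFs the pattern was similar. Of 362 ZNF smORFs tested, 22 (6.08%) were called higher and 20 (5.52%) lower, against 17.9% and 15.5% of all 15182 smORFs tested. These 42 smORFs lay in 29 overlap clusters and 30 host genes, and no host gene had smORFs called in both directions. Of the 25 host genes called, 21 also had a called smORF, and the 4 without were ZNF445, ZNF507, ZNF780A and ZNF83. With 1 smORF per cluster, 11 were called higher and 10 lower.

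Members with the most smORFs show what overlap does to such counts. ZNF254 had 29 smORFs in 3 clusters, of which 3 passed the filter and none was called. ZNF226 had 25 in a single cluster, of which 24 were tested and none was called, with log2 fold changes from -0.55 to 1.07 for sequences that share reads. ZNF664, whose 18 smORFs also carry the symbol RFLNA, was split. Its leading smORF, shown above, had 76 and 52 counts in undifferentiated and 84 and 155 in control cells (log2 change 0.79, edgeR adjusted p = 0.0246), under 2-fold.

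The 4 smORFs of ZNF664 called lower all end at the same base, position 123973927 of chromosome 12, and overlap each other. The most counted of these, at chr12:123973283-123973927, had 17 and 14 counts in undifferentiated, 6 and 4 in control, 12 and 16 with micelles without lipid and 13 and 17 with lipid micelles (-1.68 on the log2 scale, edgeR adjusted p = 0.0182). Only the control libraries were low, and the micelle libraries had counts close to the undifferentiated ones. The host gene as a whole changed by 0.63 (edgeR adjusted p = 0.0294), under 2-fold, from 504 and 501 CPM to 702 and 853 CPM. The 4 micelle libraries stood higher still, from 976 CPM upward.

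The micelle comparisons asked whether bile salt micelles, with or without lipid, changed reads on ZNF smORFs in differentiated cells. No ZNF host gene was called in any of the 3 comparisons. Micelles without lipid against control cells gave calls for 0.0393% of all host genes, all higher, and none lower (0%), and both lipid micelle comparisons called 0% of host genes and 0% of smORFs. The smallest edgeR adjusted p among ZNF host genes was 0.818, 0.939 and 0.995 for micelles without lipid against control, lipid micelles against control, and lipid micelles against micelles without lipid. At an unadjusted p under 0.05 stood 7, 9 and 3 of the 116 ZNF host genes (6.03%, 7.76% and 2.59%), against 4.85%, 4.70% and 4.05% of all host genes, and DESeq2 gave 1 and 2 for the comparisons with control. Median log2 fold changes were -0.07, -0.05 and -0.05, against -0.01, -0.01 and -0.00 over all host genes.

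ZNF smORFs were not called either, with smallest edgeR adjusted p of 0.896, 0.957 and 0.999. The absence of calls does not show that the groups were alike.

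The host genes nearest to a call are given by their values. ZNF488, with 359 and 309 CPM in control cells, stood at 187 and 208 CPM with lipid micelles, and the ranges did not overlap. Of all host genes tested, 18.3% lay wholly lower in this comparison. The log2 fold change of ZNF488 was -0.75 (SE 0.24, edgeR adjusted p = 0.939). Micelles without lipid, at 255 and 192 CPM, also lay below control (log2 change -0.58, SE 0.24, edgeR adjusted p = 0.979). Lipid micelles against micelles without lipid gave -0.17 (SE 0.24). ZNF445, a KRAB protein that maintains genomic imprints, had 60.4 and 54.9 CPM in control cells, 51.7 and 54.4 CPM with micelles without lipid and 22.7 and 22.1 CPM with lipid micelles.

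In ZNF445 only the lipid micelle libraries lay apart from the other differentiated ones, and they fell within the undifferentiated range of 14.6 to 32.7 CPM. The log2 fold change was -1.34 (SE 0.45) against control and -1.24 (SE 0.45) against micelles without lipid, with edgeR adjusted p of 0.939 and 0.995. It rests on 8 and 10 counts with lipid micelles against 16 and 22 in control cells.

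ZNF696 had 68.0 and 59.9 CPM in control cells and 20.7 and 25.9 CPM with micelles without lipid (log2 change -1.42, SE 0.47, edgeR adjusted p = 0.818). ZNF775, whose smORFs are all shared with REPIN1, went the other way, with 22.7 and 29.9 CPM in control cells and 79.2 and 49.2 CPM with micelles without lipid (log2 change 1.22, SE 0.44, edgeR adjusted p = 0.820). ZNF630, which shares a smORF with ZNF182, had 1 and 6 counts with micelles without lipid and 6 and 19 with lipid micelles (1.54 on the log2 scale, SE 0.68, edgeR adjusted p = 0.995). The comparisons with control and the comparison of control with undifferentiated cells share the 2 control libraries, so their values are not independent. Side by side, the log2 fold changes on differentiation and with lipid micelles against control were 2.35 and -0.75 for ZNF488, 1.29 and -1.34 for ZNF445, and 1.44 and -0.89 for ZNF696.

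**Figure D5:**
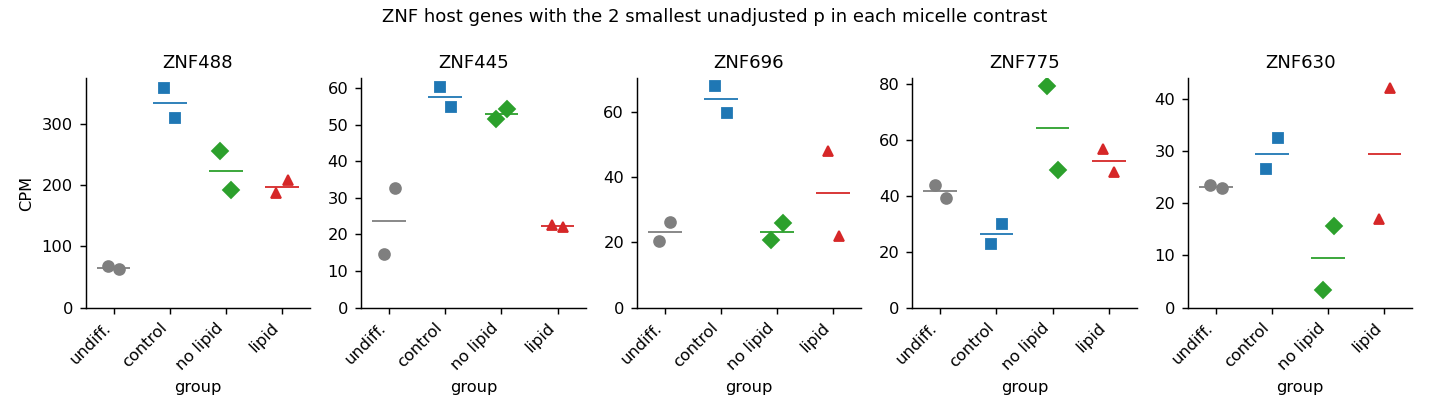
CPM in each library (symbols) and the mean of each group (horizontal lines) for the 5 ZNF host genes that had 1 of the 2 smallest p in at least 1 of the 3 micelle comparisons; each panel has its own axis from 0. ZNF488, ZNF445 and ZNF696 are highest in the control group, and the lipid micelle libraries of ZNF445 sit at 22.7 and 22.1 CPM.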

How the data were processed

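Ribo-Seq of Caco-2 cells was analysed in 8 libraries, 2 in each of 4 groups taken from the labels. The authors aligned reads to hg38 with STAR (2.7.11a in the submitters' processing notes), assembled transcripts, called smORFs with RibORF and counted reads per smORF with HOMER. The deposited values are raw counts, and the deposited annotation holds the RibORF and PhyloCSF scores given by the authors. Strand, exon and multi-mapping options are not given in the sources used here.

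Counts were joined to the annotation by smORF identifier, and the sequence at the deposited exons matched hg38 for 629 of the 633 ZNF smORFs. Per host gene, the most counted smORF of each same-strand overlap cluster was summed. A smORF with several host symbols counted for each. Host genes and smORFs were filtered by filterByExpr, scaled by TMM and fitted with edgeR 4.0.16 (quasi-likelihood, R 4.3.3) over all 8 libraries. Each p-value is two-sided and adjusted over all features tested. The SE was derived from the F statistic. Where a group had 3 counts or fewer in both libraries, a count ratio with an exact conditional binomial interval is given. This covers counting error alone, since PCR duplicates are not resolved. DESeq2 1.42.0 was an alternative. The fits were tested on simulated data. No RefSeq protein table was used, and fingers and KRAB boxes came from translated GENCODE transcripts.

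Named host genes were the 10 called higher and the 10 called lower with the largest fold change, the 5 highest per kilobase, the 2 nearest to a call in each micelle comparison, the 3 with the most smORFs and up to 4 per role list by mean CPM. Genes outside this rule were named after their values were seen. Members, lists and alternatives were chosen with earlier results of these data known.

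Equal replicate numbers were checked as pairs. Deviations from the group mean correlated at 0.198, 0.119 and 0.109 between differentiated groups. On log2(CPM + 1), the value of 0.109 was 0.096. Pairs that held an undifferentiated library gave -0.065 to 0.021. The statistics given in the results are unpaired in every comparison. Replicate number entered as a block only in an alternative fit, which for the micelle comparisons used the differentiated libraries alone.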

Additional observations from a re-analysis of the deposited data

How the results depend on the processing

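On differentiation, the 15 higher and 10 lower ZNF host genes became 8 and 5 with DESeq2, and 6 and 2 where 10 counts were required in every library, which left 60 of the 116 to test. Leaving out 1 library gave 8 to 15 higher and 3 to 10 lower. The 22 higher and 20 lower ZNF smORFs became 7 and 6 with DESeq2, 5 and 4 with 10 counts in every library, and 11 and 10 with 1 smORF per cluster, where fewer smORFs were counted. Leaving out 1 library gave 11 to 25 higher and 5 to 24 lower. With the replicate number as a block, 15 higher and 9 lower host genes and 21 higher and 20 lower smORFs were called, and the block changed no call in the micelle comparisons. Other settings stayed within 1.5 times of these counts.

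The median log2 fold change of ZNF host genes on differentiation, 0.24, was 0.18 with every smORF summed and 0.14 without shared smORFs, and 0.15 to 0.20 with 1 library left out. The cause was not tested. In the micelle comparisons the medians lay between -0.137 and 0.0925 in every setting. They ran from -0.0914 to 0.0925 for micelles without lipid with 1 library left out, and for lipid micelles against control from -0.0614 to 0.0012 with 1 library left out and at 0.0018 with 10 counts in every library. With 1 smORF per cluster the mean shares of counts were 1.02% (undifferentiated), 1.14% (control), 1.12% (micelles without lipid) and 1.09% (lipid micelles). No ZNF host gene or smORF was called in a micelle comparison under any setting, and no named host gene changed direction past the threshold. DESeq2 called 13 of the 25 host genes called on differentiation. Between 506382 and 884711 counts per library, most ZNF host genes have few counts, which limits what a 2-fold change can show.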
